A study of Homo sapiens with 2 samples.

Results

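The alpha and beta tubulin genes TUBA1A, TUBA1B, TUBA1C, TUBA4A, TUBB, TUBB2A, TUBB3, TUBB4B and TUBB6 were described in A549 cells. They were selected by gene symbol, and no count entered the rule, but the symbols were listed with earlier results of these data known. The 9 symbols (4 alpha and 5 beta) matched 10 of the 57736 gene entries of the deposited table, because TUBB3 has 2 entries, which were summed. A549 is a human lung adenocarcinoma line of epithelial origin, labelled WT for genotype, and the series describes the cells as carrying a red fluorescent VIM reporter. By their labels, 1 library came from cells taken through epithelial to mesenchymal transition (EMT) with TGF-beta, and the other library from untreated cells. Neither a TGF-beta dose nor an exposure time was given in the sources used here. The libraries were made with the AmpliSeq Transcriptome kit, which reads short PCR products of targeted genes, from 10 ng of total RNA each.

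Alpha and beta tubulin form the heterodimer from which microtubules are built, the hollow filaments that carry vesicles, separate chromosomes and give cells their polarity. Vertebrates encode each subunit in several genes, called isotypes, whose proteins are very alike in the body and differ mainly in the acidic C-terminal tail. That tail faces outward and is where motors, microtubule-associated proteins and enzymes that add or remove glutamate or tyrosine act. Cells also adjust tubulin mRNA to the pool of free dimers: a factor, TTC5, recognises the nascent N-terminus of tubulin at the ribosome and recruits mRNA decay.

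Sequences of members from both families are shown to let the subunits and their tails be compared. They are reference coding sequences of GENCODE 29 (GRCh38), not sequences read from these cells. In the first 45 coding bases the capitals mark the first 12, the start codon and the following 3 codons, which encode the stretch that autoregulation reads:
TUBA4A: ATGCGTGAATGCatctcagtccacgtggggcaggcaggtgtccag
TUBB: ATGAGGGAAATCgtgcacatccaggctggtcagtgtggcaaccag
TUBB2A: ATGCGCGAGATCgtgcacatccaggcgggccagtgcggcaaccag
TUBB3: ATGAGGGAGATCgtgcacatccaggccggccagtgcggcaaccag

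The beta genes are close to each other here: TUBB differs from TUBB3 at 4 of the 45 bases, and TUBB2A from TUBB3 at 3. In the last 60 coding bases, which encode the tail, the capitals mark the stop codon:
TUBA4A: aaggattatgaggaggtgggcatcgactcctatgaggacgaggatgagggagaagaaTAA
TUBB: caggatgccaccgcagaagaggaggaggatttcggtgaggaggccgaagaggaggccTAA
TUBB3: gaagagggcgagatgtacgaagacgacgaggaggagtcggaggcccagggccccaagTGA

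TUBB and TUBB3 differ at 34 of these 60 bases when the ends are set against each other from the stop codon without gaps, far more than at the start. The last codon before the stop in TUBA4A (gaa) is a glutamate codon, so this alpha isotype encodes no terminal tyrosine.

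Over the whole coding sequence the alpha members were 84.4% to 97.2% identical to each other (6 pairs) and the beta members 80.9% to 87.7% (10 pairs). Alpha against beta gave 52.2% to 53.9%. The closest pair was TUBA1A and TUBA1B, with 97.2% identity. TUBA1B and TUBA1C, at 96.8%, shared the longest unbroken run, 326 bases. Of all windows of 100 coding bases, 45.2% in TUBA1B, 26.4% in TUBA1A and 26.7% in TUBA1C occurred unchanged in a transcript of another gene. TUBB2A had the highest value, 68.0%, nearly all of it from TUBB2B, which holds 65.7% of its windows. The value was 10.6% in TUBB, 6.86% in TUBB3 (beside a readthrough locus that holds 95.6% of its windows), 3.55% in TUBB4B, 3.04% in TUBA4A and 0% in TUBB6. How reads that match several genes were counted was not given in the sources used here. Counts of TUBA1A, TUBA1B, TUBA1C, TUBB2A and, through the readthrough locus, TUBB3 are therefore uncertain as single genes. Sums over a family are less affected.

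Of the genes known to be induced by TGF-beta, TGFBI, SMAD7 and PMEPA1 went against the labels. TGFBI, an extracellular matrix protein, had 15 counts in the library labelled TGF-beta and 407 in the one labelled untreated. SMAD7, the feedback inhibitor of the pathway, had 5 against 22, and PMEPA1 had 3 against 71, whereas COL1A1, a collagen gene, had 356 against 196. Scaling on ribosomal protein counts, described below, turns SMAD7 to higher and leaves TGFBI and PMEPA1 lower. These genes were chosen after their values were seen, and no sample was relabelled: "TGF-beta library" below means the library that carries that label, and every direction rests on it.

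The libraries held 597133 and 674784 counts (TGF-beta and untreated), after expected counts were rounded to whole numbers. They were concentrated in few genes, with 43.7% and 32.7% of the expected counts in the 10 most counted. Values are counts and CPM, the count relative to the library total after scaling by the trimmed mean of M-values (TMM). The log2 ratio sets the TGF-beta value over the untreated value, so that a gene with equal counts has a log2 ratio of 0.34. Brackets hold exact 95% intervals, which cover counting error only, since PCR copies of 1 molecule cannot be recognised without molecular identifiers. With 1 library per condition there is no replicate spread and no test, and no difference below has a replicate check. A 0 was set to a floor of 3 counts, and no ratio is given where both libraries had 3 counts or fewer.

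Tubulin counts were far lower in the TGF-beta library. The 9 genes together had 49 counts there against 771 without treatment, or 86.7 CPM (64.2 to 115) against 1081 CPM (1006 to 1160). The summed count was 12.5-fold lower (9.34 to 17.0), a log2 ratio of -3.64 (-4.09 to -3.22). As a share of all counts, tubulin made up 0.00821% under TGF-beta (0.00607% to 0.0108%, exact binomial) and 0.114% without it (0.106% to 0.123%). By gene, 8 of the 9 were at least 2-fold lower, 0 were at least 2-fold higher, and TUBB4B had too few counts for a ratio. Among all 14067 genes with a ratio and at least 5 CPM in 1 library, 29.2% lay at or past 2-fold lower, and 21.3% at or past 2-fold higher. With at least 20 CPM in 1 library, 6 of 6 tubulin genes were at least 2-fold lower, beside 36.0% of all genes lower and 18.5% higher under that filter. Over all genes 4111 lay past 2-fold lower and 2996 past 2-fold higher, a split that became 104 and 11932 with the libraries scaled on ribosomal protein counts. The median log2 ratio was -2.79 for the 8 tubulin genes with a ratio and -0.08 for all genes compared. Of those 6, TUBB3 alone reached 20 CPM under TGF-beta, and the other 5 passed through the untreated library, so that filter favours lower values. TUBA1C and TUBB6 passed the 5 CPM filter through the untreated library alone, and TUBB4B through the TGF-beta library alone.

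**Figure D1:**
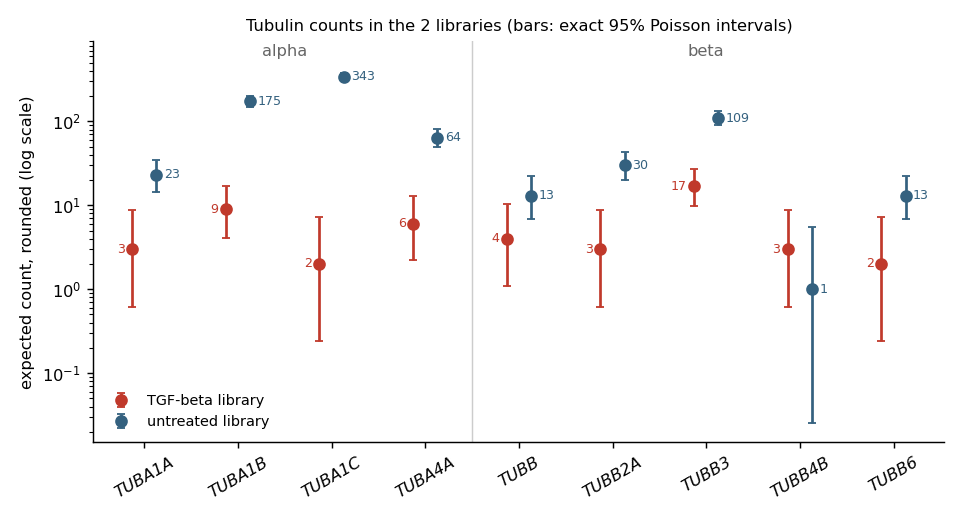
Rounded expected counts of the 9 tubulin genes on a log axis, TGF-beta library in red and untreated library in blue, with exact 95% Poisson intervals. The untreated point is the higher one for every gene but TUBB4B (3 counts against 1), and the gap is widest for TUBA1C (2 against 343).

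This difference was shared by genes with no special tie to microtubules. The 38 genes of the ribosomal protein list summed to 1116 counts against 16970, a log2 ratio of -3.59 (-3.68 to -3.50). Of the 37 with a ratio, 35 were at least 2-fold lower, among them RPS12 (16 counts against 600) and RPS20 (7 against 257), and 1 was higher, RPS24 (15 against 4). With the libraries scaled on those ribosomal protein counts, the summed tubulin ratio was -0.049, and 1 tubulin gene was at least 2-fold lower and 3 were at least 2-fold higher. The glycolytic gene GAPDH had 115 counts against 2764 (-4.25, -4.53 to -3.98), and ACTB, beta actin, had 34 against 463 (-3.43, -3.98 to -2.93). VIM, the mesenchymal intermediate filament protein whose reporter the cells carry, had 56 against 452 (-2.68, -3.11 to -2.27). VIM is known as a gene that is higher after EMT, so with TMM scaling it too went against the labels. Scaled on the ribosomal protein counts its direction turned, because its fall was smaller than that of their sum. Low tubulin counts thus went with low counts of the ribosomal protein list and of GAPDH, ACTB and VIM. Their part in the tubulin difference was not tested, and in bulk RNA fewer cells of a type and less RNA per cell cannot be told apart. With 1 library per condition, a difference between the cells cannot be told apart from one of RNA quality or library preparation either.

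**Figure D2:**
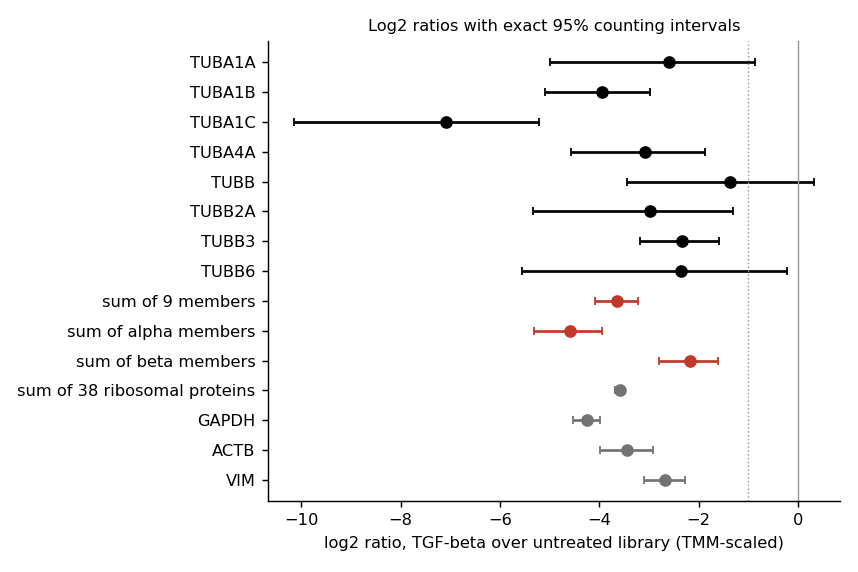
Log2 ratios (TGF-beta over untreated library, TMM-scaled) with exact 95% counting intervals for the 8 tubulin genes with a ratio, the tubulin sums (red) and ribosomal protein, GAPDH, ACTB and VIM counts (grey). The dotted line marks 2-fold lower. The tubulin sum at -3.64 lies beside the ribosomal protein sum at -3.59, and the interval of TUBB alone crosses 0.

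The alpha subunit genes together had 20 counts against 605, a log2 ratio of -4.58 (-5.30 to -3.94). TUBA1C (hg19 chromosome 12, 49582519 to 49667114, plus strand), an alpha isotype of dividing cells, was the most counted tubulin gene of the untreated library. It had 2 counts (3.54 CPM) against 343 (481 CPM), a 136-fold lower value (37.3 to 1127). Its log2 ratio of -7.09 (-10.14 to -5.22) was the lowest of the 8, and its interval did not overlap those of the other alpha genes.

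TUBA1B (hg19 chromosome 12, 49521565 to 49525180, minus strand), the broadly expressed alpha isotype, had 9 counts (15.9 CPM) against 175 (245 CPM). Its log2 ratio was -3.95 (-5.10 to -2.99). An entry on the opposite strand, RP11-386G11.10, spans all 3616 bases of TUBA1B and had 2.64 and 53.2 expected counts. With that entry added, TUBA1B had 11.9 against 228 expected counts and a log2 ratio of -3.91. TUBA1B was lower by either reading.

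TUBA4A (hg19 chromosome 2, 220114433 to 220142892, minus strand), the isotype without an encoded terminal tyrosine, had 6 counts against 64 and a log2 ratio of -3.08 (-4.58 to -1.88). TUBA1A (hg19 chromosome 12, 49578579 to 49583107, minus strand), the main alpha isotype of developing neurons, had 3 counts against 23 and a log2 ratio of -2.60 (-4.98 to -0.88). TUBA1A and TUBA1C lie head to head on opposite strands and overlap by 589 bases, so counts in that stretch cannot be given to either gene unless strand was used. Few counts are concerned: the exons at the start of each gene, which reach into it, held 1.0 and 0.0 expected counts in TUBA1A and 0.0 and 0.02 in TUBA1C. All 4 alpha genes were lower, but TUBA1A (0.99) and TUBA4A (0.51) turned with the libraries scaled on ribosomal protein counts.

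The beta subunit genes together had 29 counts against 166, a log2 ratio of -2.18 (-2.80 to -1.61). TUBB3, the class III isotype used as a neuronal marker and also found in carcinomas, was the most counted beta gene in both libraries. It had 17 counts (30.1 CPM) against 109 (153 CPM) and a log2 ratio of -2.35 (-3.18 to -1.60). Of the 2 entries (hg19 chromosome 16, plus strand), the one from 89985573 to 90002505 held 17.3 and 102 expected counts, and the one from 89989753 to 90005169 held 0 and 6.76. The larger entry is the readthrough locus named above, which begins upstream and overlaps the other by 12753 bases. Most counts given here for TUBB3 thus lie in the readthrough entry, and whether they come from TUBB3 transcripts cannot be told. TUBB3 was lower, and none of the other 8 genes reached 10 counts under TGF-beta. With the libraries scaled on ribosomal protein counts, the direction turned, to 1.41 for the beta sum and 1.25 for TUBB3.

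The other neuronal markers went in both directions. The list of 12 neuronal markers summed to 151 counts against 158, a log2 ratio of 0.27 (-0.06 to 0.60). The 7 with a ratio had a median log2 ratio of 0.64. Of these, 2 were past 2-fold lower and 1 past 2-fold higher, beside 29.2% and 21.3% of all genes. GAP43 was at 0 counts in the TGF-beta library and ELAVL4 at 0 in the untreated library. SYP, a synaptic vesicle protein, had 9 counts against 33 (-1.54, -2.79 to -0.44), RBFOX3, a neuronal splicing factor, had 7 against 20 (-1.18, -2.66 to 0.12), and NEFM, a neurofilament subunit, had 13 against 6 (1.45, -0.04 to 3.13). INA had the most counts of the list, 42 against 30 (0.82, 0.11 to 1.55). ELAVL3 (0.66), NEFH (0.64) and NEFL (0.24) were higher too, within counting error.

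TUBB2A (hg19 chromosome 6, 3153903 to 3157760, minus strand), a class II isotype, had 3 counts against 30 and a log2 ratio of -2.99 (-5.34 to -1.30). Its near copy TUBB2B had 0 and 0.34 expected counts. TUBB6 (hg19 chromosome 18, 12307668 to 12344319, plus strand), the class V isotype, had 2 counts against 13 and a log2 ratio of -2.37 (-5.55 to -0.22). TUBB2A and TUBB6 were lower, with intervals that span several-fold, and turned to 0.60 and 1.23 with scaling on ribosomal protein counts.

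TUBB (hg19 chromosome 6, 30687978 to 30693203, plus strand), the class I isotype and usually the main beta tubulin of epithelial and cancer cells, had only 4 counts against 13. Its log2 ratio was -1.37 with an interval from -3.44 to 0.33, so the difference was within counting error. The exon entries gave TUBB 7.48 and 6.07 expected counts, and a log2 ratio of 0.56, so its direction depends on which entries are read. With scaling on ribosomal protein counts the ratio of the gene entry turned as well, to 2.23. TUBB4B (hg19 chromosome 9, 140135665 to 140138159, plus strand), a class IV isotype present in most tissues, had 3 counts against 1, and no difference was detectable at this depth.

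Ordered by untreated CPM, the genes ran from TUBA1C (481) over TUBA1B (245), TUBB3 (153), TUBA4A (89.8), TUBB2A (42.1), TUBA1A (32.3), TUBB (18.2) and TUBB6 (18.2) to TUBB4B (1.40). Counting intervals separated TUBA1C, TUBA1B, TUBB3 and TUBA4A from each other, and did not separate TUBB2A from TUBA1A or TUBA1A from TUBB and TUBB6. In the TGF-beta library TUBB3 came first (30.1 CPM), followed by TUBA1B (15.9) and TUBA4A (10.6), and the interval of TUBB3 (17.5 to 48.2 CPM) overlapped that of both. These orders are of counts on an amplicon assay, not per length, and do not rank the mRNAs.

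The make-up of the tubulin count differed between the libraries, a comparison that does not depend on scaling. Alpha genes held 40.8% of the 49 tubulin counts in the TGF-beta library (27.0% to 55.8%) and 78.5% of the 771 in the untreated library (75.4% to 81.3%). TUBA1C held 10.0% of the alpha count (1.24% to 31.7%) in the TGF-beta library and 56.7% (52.6% to 60.7%) in the untreated library. Without TUBA1C, alpha genes held 38.3% and 61.2%, so a difference of the same direction was left. TUBA1A (15% against 3.80%), TUBA1B (45% against 28.9%) and TUBA4A (30% against 10.6%) had larger shares in the TGF-beta library, with intervals that overlapped between libraries. TUBB3 held 58.6% of the beta count in the TGF-beta library (38.9% to 76.5%) and 65.7% in the untreated library (57.9% to 72.9%), a difference within counting error. The intervals treat counts as independent and have no replicate check. The shares also take counts from any part of a gene as alike. In TUBA1A, TUBA1C, TUBB, TUBB2A and TUBB6 most TGF-beta counts lay in exon blocks with few untreated counts, as described below. For TUBA1C both lay in a block with 4.96% of the untreated counts. The part of this in the shares was not tested.

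**Figure D3:**
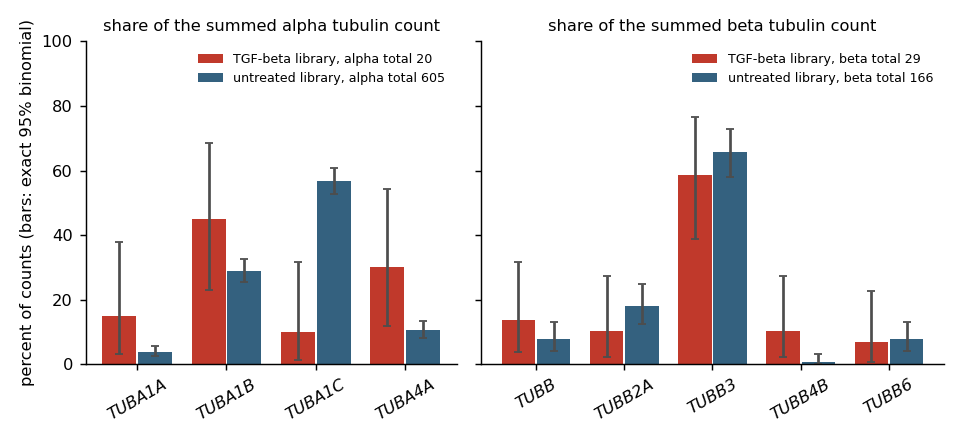
Percent of the summed alpha count (left) and beta count (right) in each isotype, TGF-beta library in red and untreated library in blue, with exact 95% binomial intervals. TUBA1C is the isotype with the clearest gap, 10.0% against 56.7%, and TUBB3 leads the beta genes in both libraries.

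In some genes most counts also lay in different parts of the gene, at few TGF-beta counts. The deposited exon entries were joined into blocks of overlapping exons, numbered from the 5′ end. In TUBA1A, 22.1 of the 23.4 exon-assigned counts of the untreated library lay in the last block, whereas 0 of 3 did in the TGF-beta library, where 2 lay in block 3. In TUBA1C, the untreated counts covered blocks 6 to 9, with 66.6% in block 9, and both TGF-beta counts lay in block 6, which held 4.96% of the untreated counts. In TUBB6, block 2 held 86.5% of the untreated counts and 0% of the 2 TGF-beta counts, which lay in block 5.

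TUBA4A had 36.4% of its TGF-beta counts in block 1, where the untreated library had 0%. In TUBB2A, the last block held 100% of the TGF-beta counts and 13.6% of the untreated counts. In TUBB, block 5 held 80.2% of the TGF-beta counts and 0% of the untreated counts, and block 4 held 19.8% and 91.8%. In TUBB3, by contrast, block 10 held 80.8% and 83.5%, and in TUBA1B the last block held 64.5% and 69.0%. In TUBB4B the last block held 100% in both libraries, of 3 counts and 1. TUBB3 and TUBA1B, the genes with the most TGF-beta counts, thus had like profiles in both libraries. At such counts a single read moves a share by many percentage points. For TUBA1B the exon entries summed to 18.7 and 370 counts against 9.27 and 175 in the gene entry, and the ratio between libraries was about the same (log2 ratio -3.95).

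**Figure D4:**
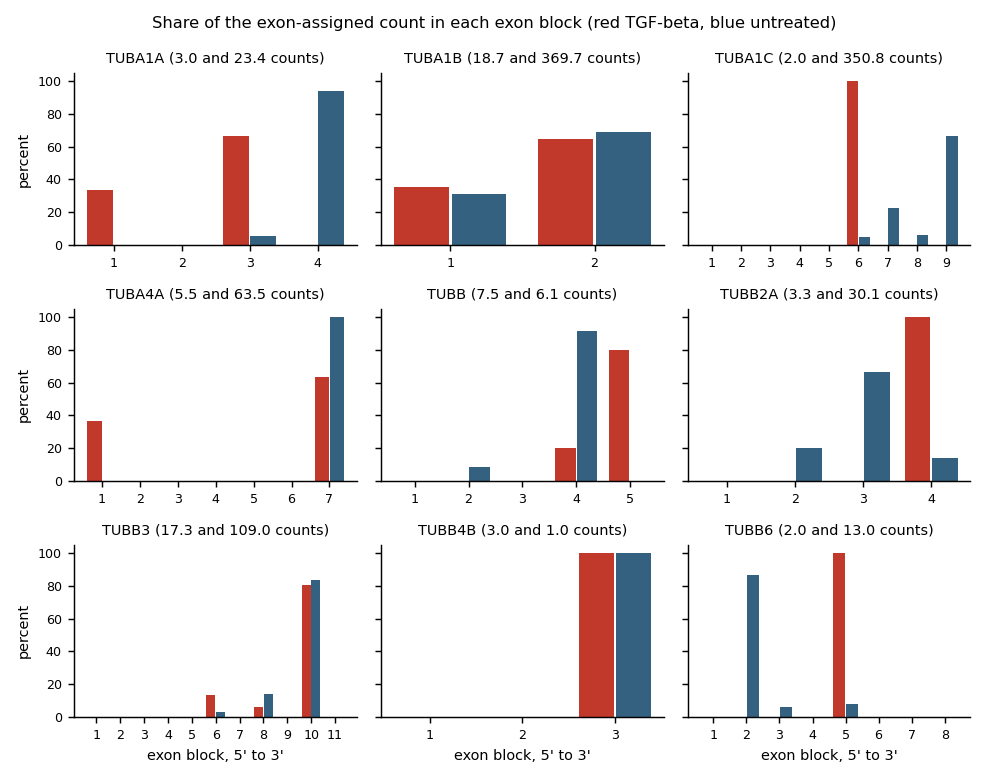
Percent of the exon-assigned expected count in each exon block, numbered 5′ to 3′, for the 9 tubulin genes (TGF-beta library red, untreated library blue; totals in each panel title in that order). TUBB3 and TUBA1B have like profiles in both libraries. In TUBA1A, TUBA1C, TUBB, TUBB2A and TUBB6 most of the few TGF-beta counts lie in blocks that hold few of the untreated counts.

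Other tubulin entries had more counts in the TGF-beta library. The 9 other alpha and beta tubulin genes, among them testis and brain isotypes, summed to 24 against 12 counts, a log2 ratio of 1.34 (0.28 to 2.47). TUBB4A, the class IV isotype of brain, made up most of it, with 14 counts against 9 (0.97, -0.34 to 2.36), and TUBA3C, a testis isotype, had 3.5 expected counts against 0. A group of 37 tubulin pseudogene entries, chosen after their values were seen, had 30 counts against 10, a log2 ratio of 1.92 (0.85 to 3.12). TUBB8P4 had the most of these, 10 against 2, and TUBB4BP2 had 4.5 against 0. The tubulin genes that lead the untreated library were thus lower in the TGF-beta library, while the other isotypes and pseudogenes, as sums, were not.

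Genes that make and organise tubulin were compared next, from lists of microtubule biology, whose counts are read beside the 29.2% of all genes lower and 21.3% higher. Folding genes encode the prefoldin and CCT chaperonin subunits and the cofactors that assemble the dimer. Of 18 folding genes with a ratio, 12 were 2-fold or more lower and 2 were 2-fold or more higher. Their median log2 ratio of -1.99 was the closest of these lists to that of the tubulins (-2.79). The median of the ribosomal protein list (-3.365) was closer still. TCP1, the first subunit of the CCT chaperonin, had 2 counts against 45 (-4.16, -7.25 to -2.22), and VBP1, a prefoldin subunit, had 1 against 22 (-4.12, -9.49 to -1.50). TBCC, the cofactor that triggers release of the finished dimer, had 14 against 2 (3.14, 1.02 to 6.32), and PFDN4, also a prefoldin subunit, had 19 against 4 (2.58, 0.99 to 4.60).

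A further list held the gamma, delta and epsilon tubulins and the gamma ring complex, which nucleates microtubules. Of its 9 genes with a ratio, 5 were lower by 2-fold or more and 0 higher, and their median was -1.04. The 5 include delta tubulin (TUBD1), and TUBG1 with its 0 against 10 counts set to the floor. MZT2A, a small subunit of the ring complex, had 3 counts against 26 (-2.78, -5.15 to -1.07), and MZT2B had 4 against 17 (-1.75, -3.78 to -0.13). The autoregulation list of TTC5 and its partners had 1 of 5 lower and a median of -0.56. TTC5 itself had 4 counts against 3, too few to show a difference.

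Genes that act on finished microtubules had medians closer to that of all genes. Tubulin-modifying enzymes had 1 of 11 lower and 1 higher, with a median of 0.22. Microtubule dynamics genes had 4 of 24 lower and 1 higher, with a median of -0.12. Most genes of these lists had few counts. With at least 20 CPM in 1 library, 2 of the 22 modifying enzymes and 10 of the 34 dynamics genes had a ratio. Their medians were then 0.065 and -0.17. MAPRE1, the plus-end tracking protein EB1, had 0 counts against 21. With its 0 set to the floor of 3 counts it was 5.55-fold lower, and its counting interval began at 4.13-fold lower. MAP1B, a stabilising protein, had 6 against 23 (-1.60, -3.19 to -0.27). Motor genes had 9 of 27 lower and 2 higher, and their median of -0.08 is that of all genes, with a sign that turned to 0.02 when the most counted genes were left out of the totals. With at least 20 CPM in 1 library 6 of 12 motor genes were lower, with a median of -0.81, beside 36.0% of all genes. The summed motor count was 256 against 545 (-0.75, -0.97 to -0.54), of which DYNLL1 made up 160 of the 545. DYNLL1, a dynein light chain, had 7 counts against 160 (-4.18, -5.52 to -3.10), DCTN5, a dynactin subunit, had 1 against 17 (-3.75, -9.14 to -1.08), and KIF1A, a kinesin of vesicle transport, had 37 against 21 (1.15, 0.34 to 2.0). With the libraries scaled on ribosomal protein counts, the medians of these 6 lists, from folding to motors, were all above 0.

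**Figure D5:**
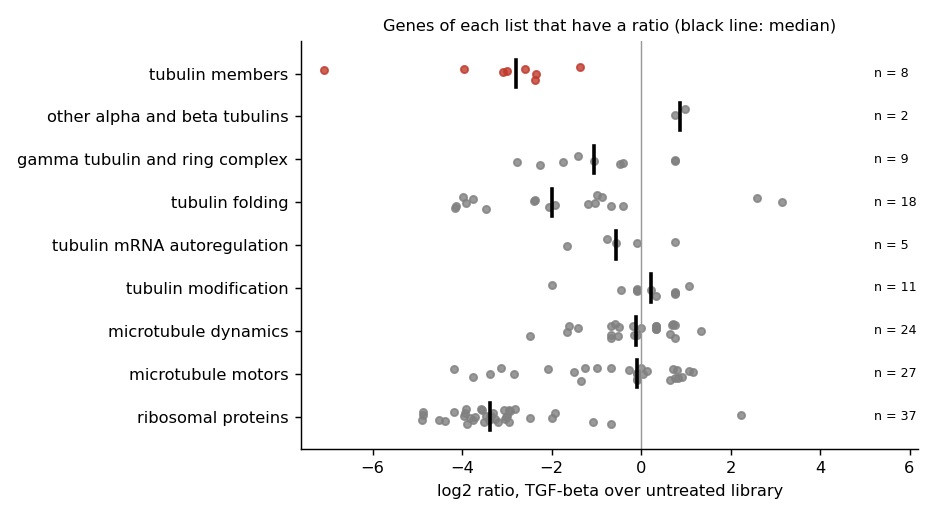
Log2 ratios (TGF-beta over untreated library) of the genes with a ratio in each list, 1 point per gene, with the median as a black line and the number of genes at the right. With TMM scaling the 8 tubulin genes with a ratio (red) lie left of 0, as does the median of the folding genes (-1.99), of which TBCC and PFDN4 lie far to the right, while the medians of modification, dynamics and motor genes are near 0.

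The genes whose counts in the 2 libraries were nearest to those of TUBA1C were TAGLN2, an actin-binding protein, with 3 counts against 269 (distance 0.68 in log2 CPM), HSPA6, a heat shock protein, with 2 against 182 (0.91), and DDIT4, a stress-induced inhibitor of mTORC1, with 3 against 197 (0.99). Nearest to TUBB3 were RP11-742N3.1 with 15 against 111 (0.18), and the histone genes HIST1H2AH with 15 against 117 (0.21) and HIST1H1E with 17 against 91 (0.26). Likeness here rests on 2 libraries.

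Several markers of the labelled cell type had counts in both libraries, but so had neuronal markers named above, such as INA (42 counts against 30). Presence alone therefore does not mark the cell type here. ALDH3A1, an aldehyde dehydrogenase abundant in A549, had 1025 counts against 994, and the keratin genes KRT19 and KRT7 had 45 against 51 and 32 against 179. Of the 13 A549 and lung epithelial markers, KRT18 and AKR1B10 were at 0 in the TGF-beta library and NAPSA at 0 in the untreated library. Of the 11 with a ratio, 5 were past 2-fold lower and 3 past 2-fold higher, beside 29.2% and 21.3% of all genes. The 3 higher were EPCAM (7 counts against 4), CDH1 (4 against 1) and SFTPB (5 against 1), each within counting error. ALDH1A1 had 14 counts against 104 (-2.56, -3.48 to -1.75), and AKR1C1, an aldo-keto reductase, had 2 against 36 (-3.83, -6.93 to -1.88). Fibroblast, endothelial and leukocyte markers summed to 431 counts against 293 over 14 genes, of which COL1A1 held 356 and 196, and CD68, a macrophage marker, held 2 and 17. LUM and LYZ were at 0 in both libraries and COL3A1 was at 0 in the TGF-beta library. Their part in the tubulin values was not tested.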

How the data were processed

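One AmpliSeq Transcriptome library of TGF-beta-induced A549 cells and 1 of untreated A549 cells were compared. The authors deposited expected counts per gene, transcript and exon, not normalized, with hg19 coordinates. Per the submitters' processing notes, hg19 was the build and DESeq was among the tools, with no role stated. Aligner, counting rule and strand setting were not given in the sources used here. Gene entries were rounded to whole numbers and scaled by TMM (edgeR 4.0.16, R 4.3.3), with factors of 0.946 and 1.06. Depth is 597133 and 674784 counts, so most tubulin genes have few counts in the TGF-beta library. Genes needed at least 5 CPM in 1 library and more than 3 counts in 1 library for a ratio. Ratios and shares have exact 95% Clopper-Pearson intervals (for ratios, given the total of both libraries), and CPM exact Poisson intervals. Ratios and intervals were tested on simulated Poisson counts in which a limited set of genes was lowered. That setting has neither the broad difference between these libraries nor PCR copies, so it does not check the scaling used here. Replicates being absent, no p-value was computed. All 216 other listed genes were found. DESeq2 1.42.0 size factors were an alternative scaling.

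Named genes were the 9 tubulin genes, up to 2 genes a list in each direction with at least 20 CPM in 1 library and a 2-fold difference, GAPDH, ACTB and VIM, and the 3 genes nearest in log2 CPM to the most counted alpha and beta gene. Other genes (TGFBI, SMAD7, PMEPA1, TTC5, TUBB2B, TUBB4A, TUBA3C, ALDH3A1, the keratins, EPCAM, CDH1, SFTPB, INA, ELAVL3, NEFH, NEFL, the marker genes at 0 and the pseudogenes) were named after their values were seen. Members and lists were chosen with earlier results of these data known. Coding sequences came from GENCODE 29 principal transcripts and were aligned with Biopython 1.88. They stand in for a comparison of protein sequences, which were not used here. Some sequences and genes are not reported here.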

Additional observations from a re-analysis of the deposited data

How the results depend on the processing

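Scaling was the choice that mattered. With DESeq2 size factors, total counts, upper quartile or totals without the most counted genes, the summed tubulin log2 ratio lay between -3.86 and -3.54. With the libraries scaled on the ribosomal protein list it was -0.049 for the 9 genes, -0.99 for alpha and 1.41 for beta, the median of the genes with a ratio was 0.80, 1 gene was at least 2-fold lower and 3 higher, and over all genes 104 were lower and 11932 higher. Of the 7 tubulin genes whose TMM interval excluded equality, those that turned were TUBA1A (0.99), TUBA4A (0.51), TUBB2A (0.60), TUBB3 (1.25) and TUBB6 (1.23). TUBB, whose TMM interval crossed 0, turned too, to 2.23. No interval was computed under the ribosomal protein scaling, so these turns are not said to be beyond counting error. The medians of the folding, ribosomal protein and reference lists became 1.38, 0.23 and 0.16. These turns follow from the construction of the scaling, which shifts every log2 ratio by 3.59. With at least 20 CPM in 1 library fewer genes are tested, and 1921 were lower and 986 higher.

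Alternatives chosen after seeing the data changed the gene sums less. Without TUBA1C the log2 ratio was -2.85 for all and -3.53 for alpha, and alpha genes held 61.2% of the untreated tubulin count. Without TUBB3 alpha genes held 62.5% of the TGF-beta count and 91.4% of the untreated count. From exon entries TUBA1C held 43.4% of the untreated alpha count and alpha genes 83.6% of the untreated tubulin count, and with the opposite-strand entries TUBA1C held 52.1%. No paired analysis was possible because each condition has 1 library. Depth limits TUBB and TUBB4B most: their differences were within counting error.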
